A study of Mus musculus with 4 samples.

Results

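Foxr2 binding at the SOXB and SOXC transcription factor genes was examined in the peak lists of a CUT&RUN series from mouse neurosphere lines. The genes are the 3 SOXB1 genes Sox1, Sox2 and Sox3, the 2 SOXB2 genes Sox14 and Sox21, and the 3 SOXC genes Sox4, Sox11 and Sox12. They were chosen by name, as 8 of 21853 protein-coding genes on assembled chromosomes (GENCODE M21, build mm10). All 8 are in that annotation. Every peak in a gene's body or within 100 kb on either side was taken as belonging to its region.

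The series holds 4 libraries, all made with an antibody against the V5 tag. The 2 Foxr2 p53LOF replicates come from a neurosphere line grown out of a C57BL/6J tumor made by in utero electroporation (IUE). That line carries V5-tagged Foxr2 under the CAG promoter, from a piggyBac vector that also gives GFP, together with p53 loss of function by CRISPR. The 2 V5 control replicates come from a line of another IUE model of the same strain, labelled G34R control, which lacks the V5 tag. The groups thus differ in oncogene and tumor of origin as well as in the tag, and these differences cannot be told apart. Cells of all 4 libraries were lightly fixed with formaldehyde. The sources do not say whether replicates are separate cultures, so any spread between them measures only these libraries.

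SOX proteins bind DNA through a high mobility group box, usually beside a partner factor that fixes which genes they act on. SOXB1 factors keep neural progenitors undifferentiated, SOXB2 factors act mostly as repressors in the same lineage, and SOXC factors act later, in committed neuronal precursors and young neurons. FOXR2 is a forkhead factor that is seldom expressed in normal brain and is switched on in a subset of embryonal brain tumors. The files record protein on chromatin and hold no RNA values.

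Foxr2 p53LOF replicate 1 has 31909 peaks and replicate 2 has 38580, while the V5 control lists have 308 and 124. A peak's height is its fold enrichment, the fragments at its summit plus 1 over the background plus 1 of the same library. A fold above 6, the minimum in the study's methods, needs 13 fragments in Foxr2 p53LOF replicate 1 and 18 in replicate 2. Intervals given below are exact 95% Poisson intervals on those fragments and cover counting error only.

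Peaks in the 8 regions came from the Foxr2 p53LOF libraries alone. They numbered 38 in replicate 1 and 51 in replicate 2, against 0 and 0 in the V5 controls. With a fold above 6 the numbers were 19 and 19 against 0 and 0. The groups did not overlap, and a two-sided exact permutation test over the 4 libraries gave p = 0.333, the smallest that 2 libraries against 2 can give. The control lists are short across the whole genome. The control peak nearest to any of the 8 gene bodies lay 299 kb from that of Sox21, in control replicate 2.

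Bases from 6 positions are given first, because they show what lies at sites of the 5 genes with tall peaks and at a start with no peak. Each is 200 bases of GRCm38 (the build of mm10), from the RefSeq genome, on the strand of the gene and 5′ to 3′, and CpG dinucleotides are in capitals. The windows are the replicate 2 summit of the domain over Sox2 (chr3:34664099-34664298), the summit downstream of Sox21 (chr14:118231246-118231445), the summit upstream of Sox4 (chr13:28958519-28958718), the summit at the Sox11 promoter (chr12:27342928-27343127), the bases before the Sox12 start (chr2:152398064-152398263) and those before the Sox14 start (chr9:99876171-99876370).
Sox2 domain: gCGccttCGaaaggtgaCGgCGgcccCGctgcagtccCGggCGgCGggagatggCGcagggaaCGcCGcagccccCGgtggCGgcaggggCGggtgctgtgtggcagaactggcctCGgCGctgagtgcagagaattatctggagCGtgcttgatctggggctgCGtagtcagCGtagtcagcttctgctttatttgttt
Sox21 downstream: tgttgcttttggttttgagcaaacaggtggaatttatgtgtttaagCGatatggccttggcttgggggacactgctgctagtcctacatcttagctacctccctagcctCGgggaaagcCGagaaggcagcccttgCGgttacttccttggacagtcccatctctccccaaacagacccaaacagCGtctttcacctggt
Sox4 upstream: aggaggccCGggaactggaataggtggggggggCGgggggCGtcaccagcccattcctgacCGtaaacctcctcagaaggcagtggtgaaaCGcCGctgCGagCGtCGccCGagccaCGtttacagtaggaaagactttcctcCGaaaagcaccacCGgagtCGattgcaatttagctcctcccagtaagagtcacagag
Sox11 promoter: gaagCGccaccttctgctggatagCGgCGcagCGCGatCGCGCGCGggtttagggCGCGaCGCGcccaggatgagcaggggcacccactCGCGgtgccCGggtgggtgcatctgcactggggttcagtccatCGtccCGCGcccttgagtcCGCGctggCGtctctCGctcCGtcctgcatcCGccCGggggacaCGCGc
Sox12 upstream: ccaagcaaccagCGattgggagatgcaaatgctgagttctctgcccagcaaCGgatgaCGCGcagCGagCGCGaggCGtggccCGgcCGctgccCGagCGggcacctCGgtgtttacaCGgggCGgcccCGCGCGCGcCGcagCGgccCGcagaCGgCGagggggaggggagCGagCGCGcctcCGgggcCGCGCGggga
Sox14 upstream: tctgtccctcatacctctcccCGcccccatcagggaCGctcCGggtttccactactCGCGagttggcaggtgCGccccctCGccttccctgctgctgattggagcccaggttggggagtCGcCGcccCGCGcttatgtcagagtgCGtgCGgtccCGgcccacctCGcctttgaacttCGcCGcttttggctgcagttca
The Sox11 and Sox12 windows hold 28 and 31 CpG, the Sox2 domain 19 and the Sox4 site 14. The Sox21 site holds 5, at 51.5% GC. The Sox14 window holds 17 CpG at 65.5% GC and lay under no peak in either replicate.

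Most of the 8 promoters carried Foxr2 in both replicates. A promoter peak here touches any base up to 1 kb to either side of a coding transcript's start. Among all deposited peaks, 6 of 8 genes had a promoter peak in both Foxr2 p53LOF replicates, where 51.5% of all protein-coding genes had one. With a fold above 6 the count was 5 of 8, namely Sox2, Sox21, Sox4, Sox11 and Sox12, where the share over all genes was 39.8%. With 8 genes, neither count stands far from the share of the genome. By group, all 3 SOXC genes, 1 of 2 SOXB2 genes (Sox21) and 1 of 3 SOXB1 genes (Sox2) were above a fold of 6.

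Among promoter peaks of the 8 genes, those of the SOXC genes were the tallest in replicate 1, and among the genes whose replicate 2 summit lay at the promoter they were also the tallest there. Sox12 (chr2:152393611-152398063, minus strand), a weaker activator that overlaps in expression with the other SOXC genes, had folds of 18.6 (interval 13.4 to 25.0, 41 fragments) and 20.0 (15.4 to 25.7, 60 fragments) in replicates 1 and 2. Sox4 (chr13:28948919-28953713, minus strand), which acts in neuronal precursors and in many tumors, had folds of 18.1 (13.1 to 24.5) and 20.4 (15.7 to 26.1). The intervals of Sox12 and Sox4 overlap almost wholly, so these neighbours in rank were not told apart.

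Sox11 (chr12:27334264-27342574, minus strand), which is needed for neuronal differentiation and survival, had folds of 16.3 (11.6 to 22.5) and 18.7 (14.2 to 24.2). Its intervals also overlap those of Sox4 and Sox12. The lower fold of each of the 3 genes stood at percentiles 90.5 (Sox4), 87.0 (Sox11) and 91.3 (Sox12) of the 11254 genes with a promoter peak in both replicates, whose median folds were 9.28 and 10.5.

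Sox21 (chr14:118233232-118237030, minus strand), which opposes SOXB1 activity and promotes exit from the progenitor state, had promoter folds of 11.5 (7.59 to 16.7) and 12.2 (8.61 to 16.7). Its summits lay 117 and 106 bp inside the gene, 11 bp apart. Both folds were a little over the genome's medians, at percentile 69.6, and both lay below the folds of all 3 SOXC promoters. The Sox21 intervals overlap those of all 3 SOXC genes in both replicates.

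Sox2 (chr3:34650405-34652461, plus strand), which maintains neural stem cells, had folds of 11.0 (7.24 to 16.2) and 19.7 (15.1 to 25.3). These do not describe the same place. The replicate 1 summit lay 200 bp before the annotated start, while the replicate 2 peak was 31591 bp long and its summit lay 13794 bp inside and beyond the gene. The replicate 2 fold is therefore not the level at the Sox2 start. RefSeq places the start 410 bases farther upstream than GENCODE, so the replicate 1 summit falls within the RefSeq transcript.

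The other 3 genes carried weak peaks or none. Sox3 (chrX:60891366-60893430, minus strand), a SOXB1 gene with roles in the hypothalamus and pituitary, had folds of 3.98 (1.97 to 7.41) and 3.94 (2.13 to 6.79). Both summits lay in its coding sequence, 880 and 663 bp from the start. The GENCODE start of Sox3 is the first base of its coding sequence, with no UTR before it. No RefSeq start was at hand for Sox3, so its distances and promoter window rest on that coding start. In rank the pair stood at percentile 2.35 of the genes with peaks in both replicates.

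Sox1 (chr8:12395295-12400126, plus strand), a SOXB1 gene of early neural plate and progenitors, had a promoter peak in replicate 1 alone, with a fold of 3.53 from 7 fragments (1.69 to 6.81). Sox14 (chr9:99874106-99876170, minus strand), a SOXB2 gene of specific interneurons, had no promoter peak in either replicate. The lowest folds listed were 3.09 in replicate 1 and 2.96 in replicate 2, so lower levels of Foxr2 were not detectable in these lists.

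**Figure D1:**
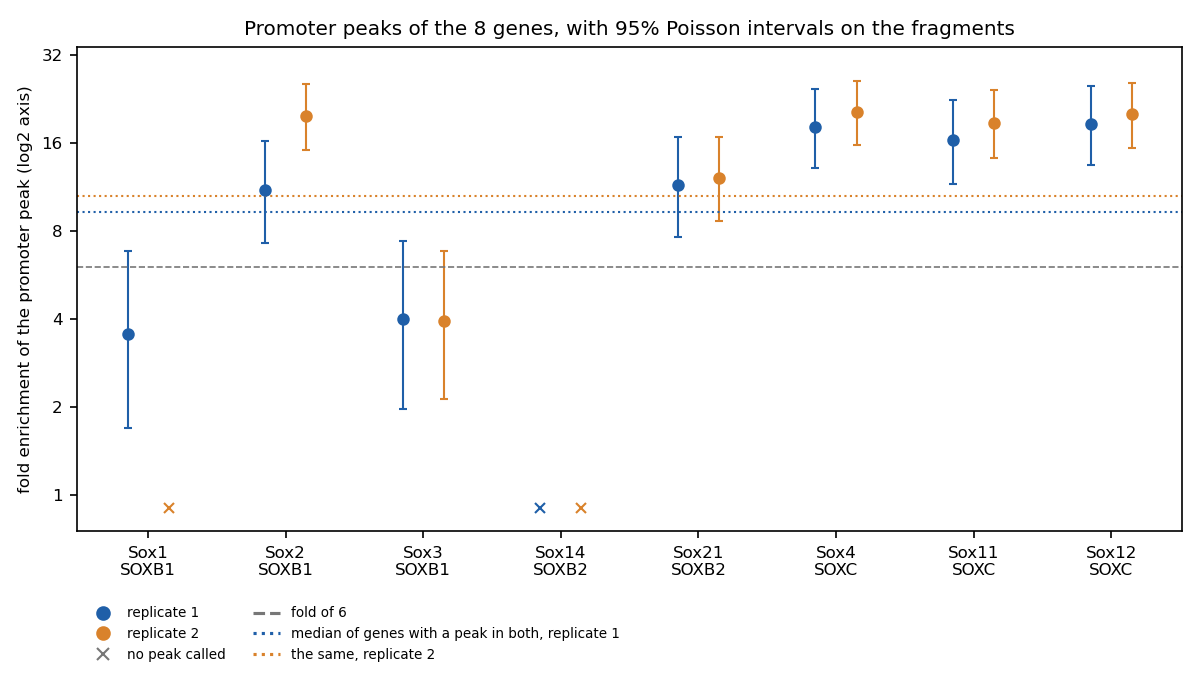
Fold enrichment (log2 axis) of the highest promoter peak of each gene in the 2 Foxr2 p53LOF replicates, with exact 95% Poisson intervals on the summit fragments as bars, crosses where no peak was called, a dashed line at a fold of 6 and dotted lines at the medians of 11254 genes. Sox4, Sox11 and Sox12 lie between 16.3 and 20.4, Sox3 near 4 and the Sox2 value of replicate 2 (19.7) belongs to a summit 13794 bp from the start.

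The 8 genes also differed in what surrounds the promoter. Stretches that lie under a peak of each replicate, 1 bp being enough, are called sites. The 8 regions held 31 sites among all peaks, of which 6 were at the gene's own promoter, 5 at promoters of other protein-coding genes and 20 distal, farther than 1 kb from any protein-coding start. Distal sites can lie inside the gene itself. With a fold above 6 in both replicates there were 19 sites, 5 at own promoters, 5 at other promoters and 9 distal. A peak that overlaps several peaks of the other replicate is counted in several sites, here and over all genes. Above a fold of 6 this holds for the distal sites chr3:34657488-34668423 (Sox2) and chr13:28949217-28951588 (Sox4). In replicate 2 both lay under the gene's own promoter peak. Among all peaks, stretches of 127 and 366 bp at Sox4 and of 157 bp near Sox21 were further pieces of this kind.

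A distal site was present in 5 of 8 regions among all peaks (61.1% of all genes) and in 4 of 8 with a fold above 6 (34.5% of all genes). Per region the median number of distal sites was 3 against 1 over all genes among all peaks, and 0.5 against 0 above a fold of 6. For sites of any class the medians were 4.5 against 4, and 2 against 2 above a fold of 6. The 4 regions with tall distal sites were those of Sox2, Sox21, Sox4 and Sox12. These regions lie in stretches of differing gene density, with 9 other protein-coding genes around Sox12, 2 around Sox21 and 0 around the other 6.

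**Figure D2:**
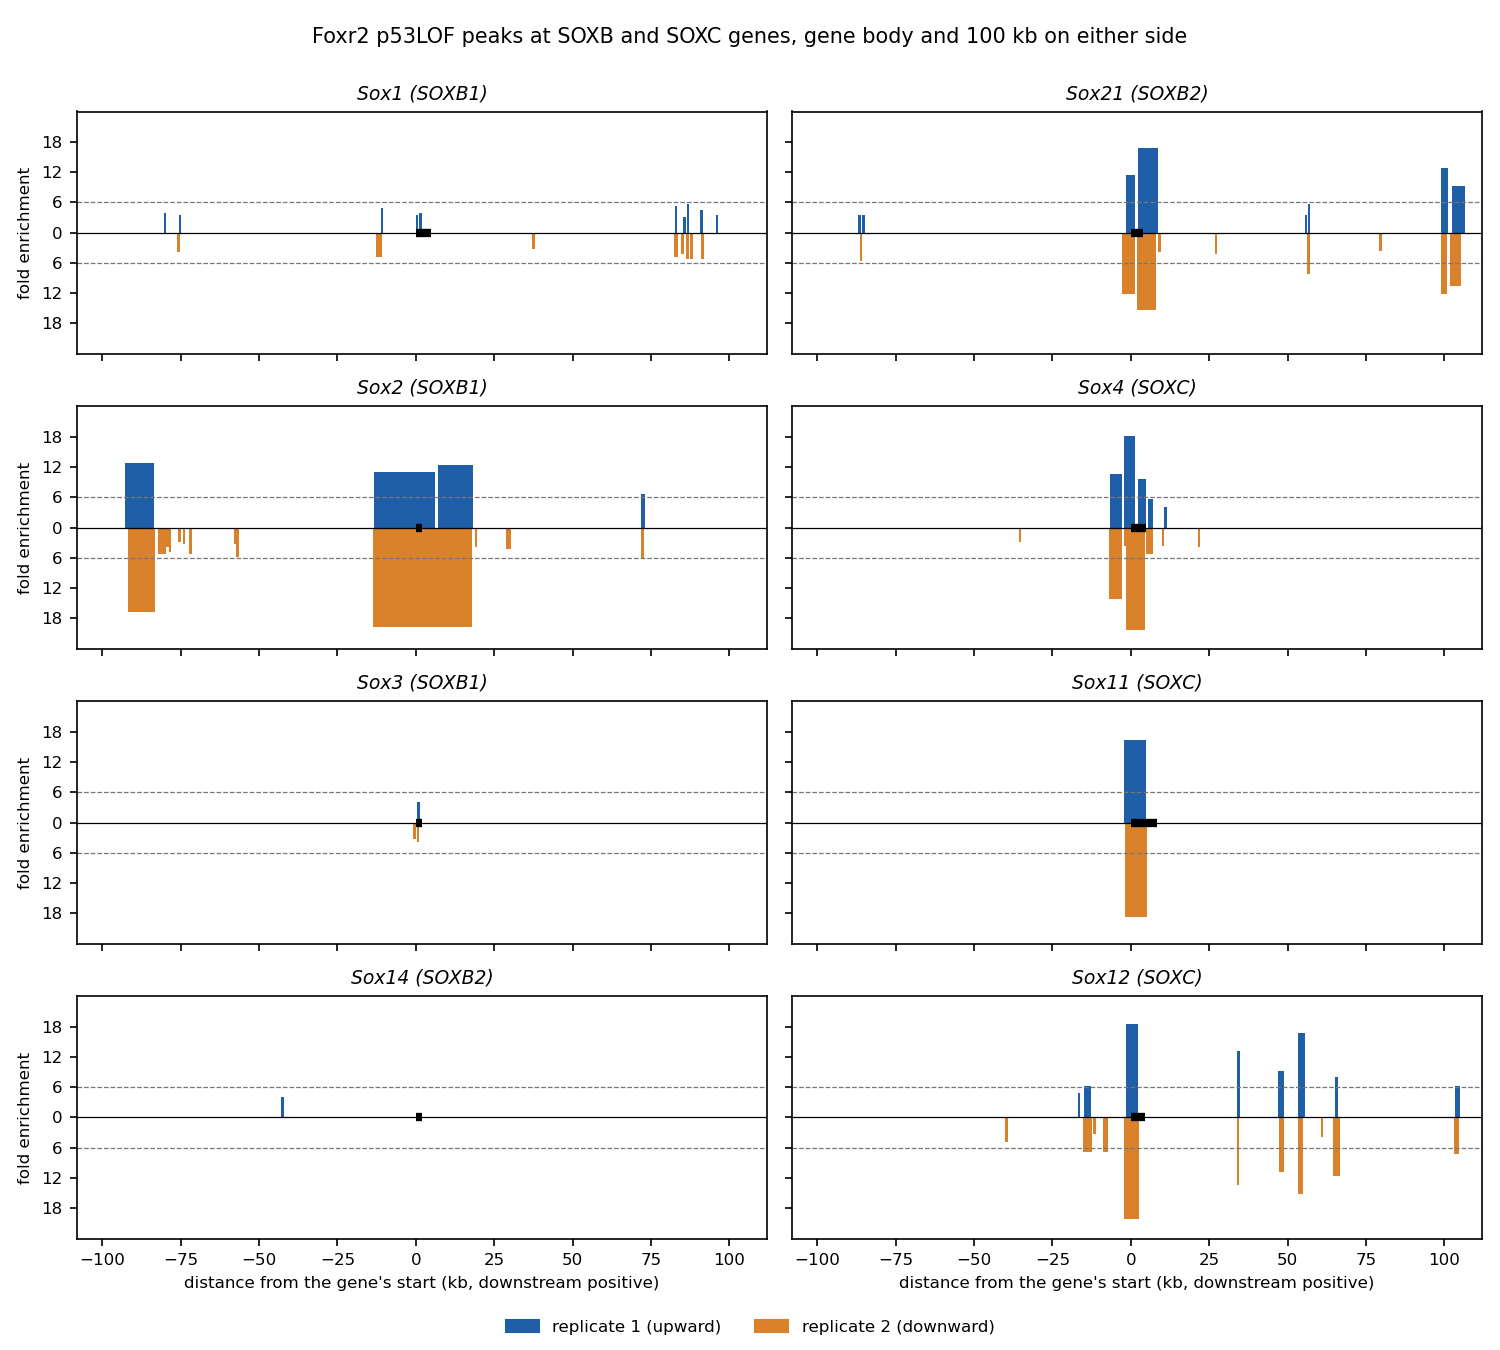
Fold enrichment of every Foxr2 p53LOF peak against its distance from the gene's start in kb (positive downstream), replicate 1 drawn upward and replicate 2 downward, with each bar as wide as the peak (at least 0.8 kb), dashed lines at a fold of 6 and the gene body in black. The Sox2 region carries long blocks of up to 31.6 kb, Sox11 a single peak per replicate, and Sox1, Sox3 and Sox14 no bar past the dashed lines.

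The Sox2 region was the most broadly covered. Peaks covered 40.6 kb of it in replicate 1 and 49.2 kb in replicate 2, more than in the regions of 99.4% and 99.0% of protein-coding genes. The whole Sox2 gene body (100%) was under peaks of both replicates, which held for at least 90% of the body in 2.04% of the 7763 protein-coding genes shorter than 10000 bp. In replicate 1 the domain was split into peaks of 19440 and 10991 bp, the second with a fold of 12.4 and a summit 8.27 kb downstream of the start. In replicate 2 it was a single peak.

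Another tall Sox2 site lay at a transcript start of Sox2ot, a noncoding gene that spans Sox2, about 90.4 kb upstream of Sox2. Its folds were 12.8 and 16.8 and its summits were 30 bp apart. A weak site stood 72.2 and 72.7 kb downstream, between genes, with folds of 6.63 and 6.24. Replicate 2 had 13 peaks in the region and replicate 1 had 4, and above a fold of 6 the numbers were 3 and 4.

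The length filter in the study's methods removes peaks of 10000 bp or more, and it removes the Sox2 domain. Under the peak list filters of the methods (fold and −log10 q above 6, length under 10000 bp, no overlap of at least 10 bp with a control peak) 4 of 8 promoters had a peak in both replicates, where 39.4% of all genes did, and the promoter lost was that of Sox2. A distal site was present in 4 of 8 regions (34.1% of all genes), and 17 sites were left. The methods also keep only regions open in single-nucleus ATAC data, a step that was not applied here. Across the genome only 24 and 62 peaks of the 2 replicates are that long. Sox2 then kept 2 sites, the one at the Sox2ot start and the weak one downstream.

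The strongest peak near Sox21 was outside its promoter. A site at chr14:118229149-118234701 had folds of 16.8 and 15.4 with summits 5.64 and 5.68 kb downstream of the start, just past the end of the gene and 44 bp apart. It exceeded the Sox21 promoter in both replicates (11.5 and 12.2). The promoter's intervals reach 16.7 in both replicates, so the gap is about the size of the counting error. A site 56.8 and 56.4 kb downstream had folds of 5.74 and 8.21, just outside the threshold. Promoters of Gpr180 (12.8 and 12.2) and Tgds (9.28 and 10.5) gave the remaining tall sites.

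Sox4 carried a cluster around the gene. A site at chr13:28956462-28960506, about 5 kb upstream, had folds of 10.6 and 14.1 with summits 5.47 and 4.91 kb before the start. In the 3′ part of the gene, at chr13:28949217-28951588, replicate 1 had a separate peak of fold 9.72 in the Sox4 UTR. Replicate 2 covered that stretch with the end of its promoter peak, so its fold of 20.4 there is the promoter's. A weaker site about 6.7 kb downstream of the start had folds of 5.74 and 5.26. Bases under a peak in each of the replicates made up 79.0% of the gene body.

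Sox11 stood alone in its region. Each replicate had 1 peak in more than 200 kb, of 6783 and 7239 bp, with summits 419 and 454 bp before the GENCODE start and 35 bp apart. RefSeq places the start 144 bases farther upstream, still short of both summits. The peaks reached into the gene and covered 56.3% of its body in both replicates.

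The Sox12 region held 7 sites above a fold of 6, more than the regions of 89.6% of protein-coding genes. Its own promoter was the tallest. The sites at promoters of other genes were those of Trib3 (16.8 and 15.1), Rbck1 (7.95 and 11.5) and Tbc1d20 (6.19 and 7.23). Distal sites lay in introns of the noncoding gene Gm14164, at 34.3 kb (13.3 and 13.5) and at about 48 kb (9.28 and 10.8) downstream of the Sox12 start. A site about 14 kb upstream, at the end of Zcchc3, had folds of 6.19 and 6.90. Any of these may belong to a gene other than Sox12, which the files cannot tell.

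Around Sox1 the peaks were many and low. The region held 10 and 8 peaks, 5 sites and no peak above 6 in either replicate. The tallest site, 87.0 and 86.5 kb downstream of the start, had folds of 5.74 and 5.26, and its neighbours at about 83 kb (5.30 and 4.93) and 91 kb (4.42 and 5.26) were alike. All 3 lie between genes. In number of distal sites among all peaks the region exceeded 85.6% of genes, and with a fold above 6 it had 0.

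Sox3 and Sox14 had almost nothing nearby. The Sox3 region held 1 and 2 peaks, all within 1 kb of the start. The Sox14 region held 1 peak in replicate 1, 42.4 kb upstream with a fold of 3.98, and 0 in replicate 2. Sox3 lies on the X chromosome, where peaks were sparse, at 2.24 and 2.72 per Mb, and where 10.3% of genes had a promoter peak above 6 in both replicates. On chromosome 13, which holds Sox4, peaks ran at 20.0 and 25.9 per Mb and 51.5% of genes had such a promoter peak. Set over the median peak fold of its chromosome relative to all peaks, the mean log2 promoter fold went from 4.26 to 4.43 for Sox4, from 4.27 to 4.18 for Sox12 and from 1.99 to 1.94 for Sox3. The part of copy number in these values was not tested.

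**Figure D3:**
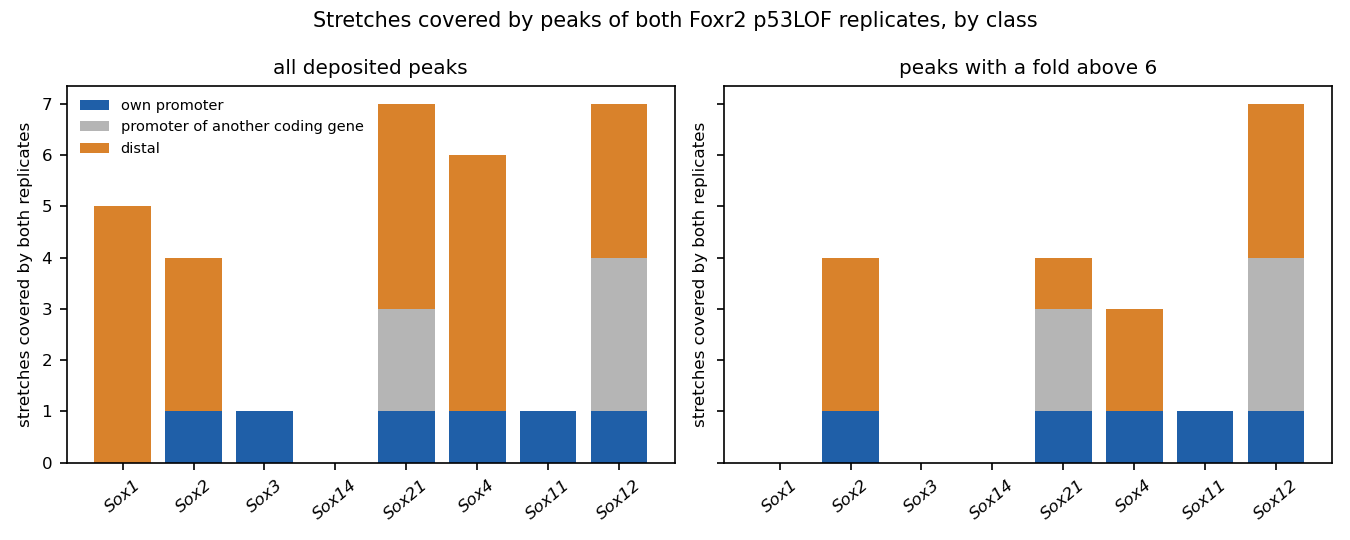
Number of stretches covered by both Foxr2 p53LOF replicates in each region, split into the gene's own promoter, promoters of other protein-coding genes and distal stretches, for all peaks (left) and for peaks with a fold above 6 (right). The total falls from 31 to 19, and all 5 stretches of Sox1 and the single one of Sox3 drop out.

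The CpG ratio (observed over expected) was taken in 300 bp around each start. In each of the 8 genes it was above the median of all protein-coding genes, 0.524, from 0.627 (Sox1) to 1.07 (Sox12). GC content of the same bases was 53% at Sox4, below the median of 55%, and above that median at the other genes. Over all genes the share with a promoter peak above 6 in both replicates rose from 4.57% in the lowest decile of the CpG ratio to 78.9% in the highest.

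Sox2 and Sox12 were in decile 10 and Sox11 in decile 9, where 72.0% of genes had such a peak. Sox3, Sox21 and Sox4 were in decile 7 (60.3%), Sox14 in decile 8 (67.7%) and Sox1 in decile 6 (48.3%). Sox14 was thus without a peak in a decile where 84.1% of genes had one in both replicates among all peaks. Sox3, Sox21 and Sox4, of the same decile, ranged in their replicate 1 fold from 3.98 to 18.1.

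**Figure D4:**
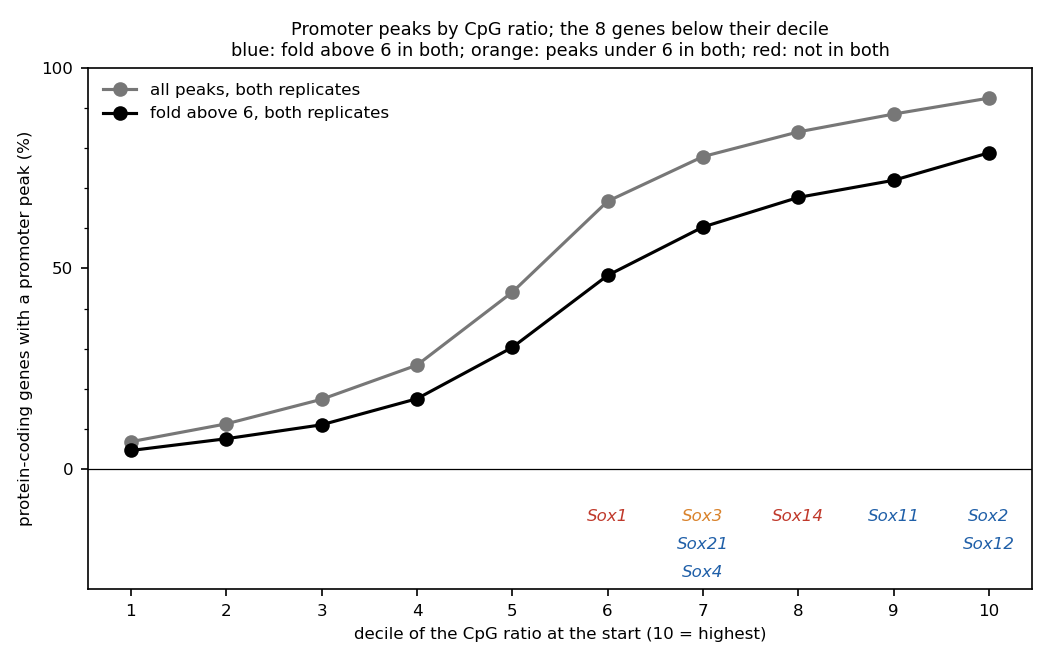
Percent of protein-coding genes with a promoter peak in both Foxr2 p53LOF replicates by decile of the CpG ratio, for all peaks (grey) and for folds above 6 (black), with the 8 genes named under their decile. The black line climbs from 4.57% to 78.9%, and Sox14 and Sox1, without a peak in both, stand in deciles 8 and 6.

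Short motifs were counted on both strands in 300 bp at the summit of each replicate's own peaks above a fold of 6, 5 peaks at own promoters and 9 distal peaks per replicate. The distal peaks of the replicates are not the same set. Those of replicate 2 include a Sox21 peak of fold 8.21 whose replicate 1 counterpart was below 6 and a Sox12 peak of fold 6.90, 8.29 kb upstream, with no counterpart. The Sox2 promoter peak of replicate 2 has its summit 13794 bp from the start. The ELK-type ETS motif CCGGAAG was in 0 of 5 promoter and 0 of 9 distal windows in either replicate. Over all peaks above 6 in replicates 1 and 2 it was in 10.2% and 10.1% of promoter windows and 2.15% and 2.17% of distal windows. So few windows are not enough to set against shares of this size.

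The ETS1-type motif AGGAAGT was in 1 of 9 distal windows of each replicate, that of the Sox21 downstream site (7.93% and 8.82% of all distal windows). In the printed Sox21 window it reads ACTTCCT, its reverse complement, at bases 142 to 148. The 2 ETS motifs share the letters GGAAG, and a match of one is not a match of the other.

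The SOX motifs CCATTGT and CCTTTGT were in 0 of 5 and 0 of 9 windows in both replicates, with 6.86% and 7.28% of all promoter windows and 13.2% and 13.4% of all distal windows holding either. The shorter SOX core ACAAT, which lies within the reverse complement of the first of them, was in 1 of 5 promoter windows of each replicate, at Sox2 in replicate 1 and at Sox12 in replicate 2, where 19.3% and 20.2% of all promoter windows had it. It was in 2 and 3 of 9 distal windows, where 39.6% and 42.4% of all distal windows had it.

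The forkhead motif GTAAACA was in 1 of 5 promoter windows of replicate 2, at Sox12, and in 0 of replicate 1 (2.45% and 2.40% of all promoter windows). In the printed Sox12 window it reads TGTTTAC at bases 111 to 117. The E-box CAGCTG was found at the Sox11 promoter in both replicates (14.6% and 14.1% of all promoter windows). It was also in 1 of 9 distal windows of each replicate (19.2% and 18.3% of all distal windows), both near Sox4 but at different places, in the 3′ part of the gene in replicate 1 and about 5 kb upstream in replicate 2. TATAAA was in 0 of 5 promoter windows of either replicate (5.34% and 5.52% of all promoter windows). Among distal windows it was in 0 of 9 in replicate 1 and 2 of 9 in replicate 2 (16.7% and 17.1% of all), and 1 of those 2 is the Sox21 peak below 6 in replicate 1. A match or its absence describes these letters only.

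Of the 12 other Sox genes, 6 had a promoter peak in both replicates (51.5% of all genes) and 4 had folds above 6 (39.8% of all genes). No test of these counts against those of the 8 genes was made. These were Sox6 (13.3 and 17.4) and Sox13 (7.51 and 7.88) of the SOXD group and Sox9 (10.2 and 11.5) and Sox10 (14.1 and 18.1) of the SOXE group, factors of glial and other lineages. The Sox13 summits lay 1744 and 1320 bp from its start, so its folds are not the level at the start itself. Sox8 passed in replicate 1 alone. None of the 3 SOXF genes, which act mainly in vessels, had a promoter peak in either replicate. The folds of the 3 SOXC promoters in replicate 1 were above those of all 12 other Sox genes, and the intervals of all 3 overlap those of Sox6, Sox9 and Sox10.

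**Figure D5:**
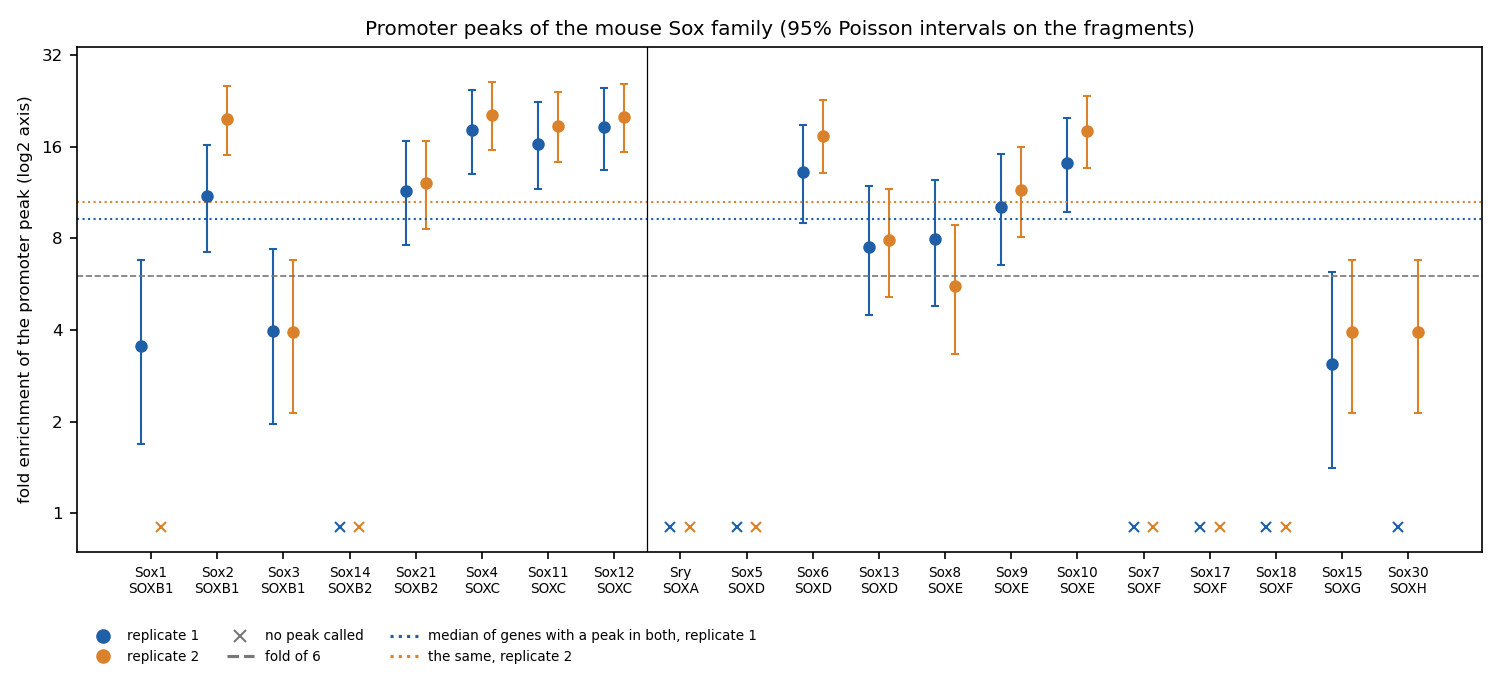
Promoter folds (log2 axis) of the 8 genes, left of the vertical line, and of 12 other Sox genes, right of it, in both Foxr2 p53LOF replicates, with exact 95% Poisson intervals as bars, crosses where no peak was called, the dashed line at 6 and dotted lines at the medians over all genes. Sox4, Sox11 and Sox12 lie between 16.3 and 20.4, and the SOXF genes carry crosses alone.

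Genes that work with the SOXB and SOXC factors were read in the same way. Of 12 SOXB1 partner and neural progenitor genes, all had a promoter peak in both replicates and 8 had folds above 6. The tallest were Nes, an intermediate filament of progenitors (17.7 and 23.3), and Pou3f3, a POU partner of SOXB1 factors (17.2 and 21.7), whose summits lay 3088 and 3146 bp (Nes) and 1586 and 4253 bp (Pou3f3) from the start. Pax6 (7.07 and 4.93) and Msi1 (5.30 and 5.59) were among the 4 that did not pass. Of 10 genes of the neuronal programme downstream of SOXC, 7 had peaks in both and 4 had folds above 6, among them the microtubule genes Stmn1 (15.9 and 19.1), Map2 (14.1 and 13.8) and Tubb3 (10.2 and 12.5). The replicate 2 summit of Map2 lay 1426 bp from the start, so that fold is not the level at the start itself. Dcx, a microtubule protein of migrating neurons, had no promoter peak. Both lists were chosen with results of these data known and are given as counts beside the 51.5% and 39.8% of all genes.

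Pairs of promoter folds are coarse, since each is a small whole number of fragments. For Sox4, 7 genes had exactly its pair of folds, among them Dimt1 and Nnt, and for Sox11 14 did, among them Ppia and Med13. For Sox21 the number was 9 and for Sox3 32. No gene had the pair of Sox2 or Sox12, whose nearest in Euclidean distance of the 2 log2 folds were Osbp and Bcan (0.02) and Ahcyl2 and Phf20 (0.02). Likeness over 2 libraries among 11253 other genes is a description of height alone.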

How the data were processed

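V5 CUT&RUN was measured in 2 Foxr2 p53LOF and 2 V5 control replicates, grouped by their labels. Per the methods and the submitters' processing notes, the authors trimmed reads with Trimmomatic (0.39), aligned them to mm10 with BWA (0.7.17), removed duplicates with Picard (2.26.6) and called peaks in each library with MACS2 (2.2.7.1), with no control library named. The deposited fold enrichment is a ratio the authors made with MACS2. The authors' MACS2 step also gave the deposited −log10 q, −log10 p and a score derived from q, and the deposited summit offset is a distance in bases. The folds fit a constant background per library, so regional differences in copy number or accessibility are not removed from them.

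Fragments at each summit were recovered from the folds and −log10 p values, as whole numbers within 0.02 for 100% of the peaks used in the search. The recovered backgrounds were 1.26 and 2.04 fragments for Foxr2 p53LOF and 1.69 and 0.642 for the controls. A peak list gives no read total, so precision rests on these fragments.

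Peaks were placed on genes with GENCODE M21 in Python (3.11.15 with numpy, pandas and scipy), before and after a minimum fold of 6. The promoter, region, overlap and filter settings varied are given at the end. The code was tested on simulated peaks. The 8 genes and the gene lists were chosen with earlier results of these data known, and the genes named besides them follow a written rule: genes starting at a peak of a member region, up to 4 values per list, and the 2 genes most alike in promoter fold. No set test was made, and no expression data were analysed here.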

Additional observations from a re-analysis of the deposited data

How the results depend on the processing

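The promoter count of 5 held between 4 and 6 under all settings tried: no minimum fold, folds above 4 and 10, a −log10 q above 10, the peak list filters of the methods (without their ATAC step), windows of 0.5 and 2 kb, summits within 1 kb, starts of all transcripts, and each replicate alone. Sox2 was the gene lost both under those filters and when the summit had to lie within 1 kb. The count of 4 regions with a distal site ranged from 3 (regions of 10 kb) to 5. The number of sites, 19, moved to 31 with no minimum fold, 12 with a fold above 10 and 9 in regions of 10 kb. It was 14 when sites had to share 50% of both peaks, and 19 when replicate 2 peaks were counted in place of sites, a setting chosen after seeing the data. The median promoter fold of the 6 genes, 4.01 on the log2 scale, was 3.78 and 4.26 with one replicate left out, replicate 1 being the lower. Over its chromosome's level it was 4.04.

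The difference of 44.5 peaks between groups was 19 above a fold of 6, 14 in regions of 10 kb, and 38 to 51 with one library left out, each with exact p = 0.333, the smallest that 2 libraries against 2 or 1 against 2 can give, so this p says nothing of stability. With replicate numbers as a replicate block it was again 44.5, with exact p = 0.5, the smallest that 2 pairs allow. The numbers only name libraries, so they do not pair them. Depth limits the weak peaks most: a fold near 4 rests on 8 to 11 fragments.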
